A study of Mus musculus with 22 samples.

Results

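The genes examined encode enzymes that make amino acids and one-carbon units and are described as targets of the transcription factor ATF4. They were taken by name, as Phgdh, Psat1, Psph, Shmt2, Mthfd2, Mthfd1l, Asns, Aldh18a1, Pycr1 and Cth, 10 of the 10516 genes with values. All 10 were present in every one of the 22 libraries. The question was whether their RNA followed the rise of Atf4 RNA in cells depleted of Denr, and whether their translation changed.

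The cells were NIH3T3, a line of mouse embryonic fibroblasts, transduced with lentiviral shRNA vectors and selected with puromycin, so that control cells carried a vector and had been selected too. Knockdown cells expressed Denr shRNA1 (3 lysates) or Denr shRNA2 (3 lysates), and control cells expressed scramble shRNA (3 lysates) or Gfp shRNA (2 lysates). All cells received cycloheximide at 100 µg/ml for 2 min before lysis, and each lysate gave an RPF-seq library (fragments protected by ribosomes, called footprints) and an RNA-seq library. The paper describes biological triplicates, and duplicates for Gfp shRNA. A replicate was 1 culture dish, and nothing states that dishes of an shRNA were transduced separately. The p-values of knockdown against control thus measure the spread between these dishes within each condition, which includes differences between its 2 shRNAs.

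ATF4 is a transcription factor of the integrated stress response. Its mRNA carries upstream open reading frames (uORFs) that hold back the main reading frame until initiation becomes limiting, and amino acid shortage is a classical trigger. DENR, together with MCTS1, helps ribosomes to start again after a uORF has been translated. Genes induced by ATF4 include enzymes that make serine, glycine, one-carbon units, asparagine, proline and cysteine, and the factor binds, with a C/EBP partner, to a composite DNA element with the core TGATGNAA.

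This core was searched on both strands of the RefSeq promoters (GRCm38.p6, from 250 bases before to 50 bases after the transcription start). It was found in 2 of the 9 enzymes that had a promoter entry, Asns and Pycr1; Cth had no entry. Of the 16 other ATF4 targets with an entry, 6 held it, as did 2 of 6 amino acid transporters, 5 of 12 aminoacyl-tRNA synthetases and 1 of 21 other genes of the pathways, against 4.51% of the 27025 genes with a promoter and 3.97% of the 32851 promoters. A match is a description of the letters and no evidence of binding. No match was found for Ddit3 and Atf5, ATF4 targets whose RNA rose after knockdown like that of Nupr1 and Trib3. The remaining matching genes among these other ATF4 targets were not called in RNA, and their windows are not shown. The windows of the enzymes and of Nupr1 and Trib3 are shown 5′ to 3′ on the strand that carries the core, which is in capitals.
Asns: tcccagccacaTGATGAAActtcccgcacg
Pycr1: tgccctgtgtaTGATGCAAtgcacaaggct
Nupr1: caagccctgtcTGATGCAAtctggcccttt
Trib3: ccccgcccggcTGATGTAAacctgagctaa
The Asns window lies at chr6:7693214-7693243 (minus strand), and its core begins 23 bases before the RefSeq start. The GENCODE model of Asns begins further upstream, at position 7693254, and therefore includes this window. The Pycr1 window lies at chr11:120643833-120643862 (minus strand), with the core beginning 103 bases before the start. The Nupr1 window lies at chr7:126625562-126625591 and the Trib3 window at chr2:152344028-152344057, both printed on the plus strand, opposite to the gene.

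An RNA-seq library held 8514080 to 20109700 reads on the CDS and 5′ UTR of the 10516 genes, and an RPF-seq library 10927303 to 21649878. The CDS of the enzymes was covered by between 50 (Pycr1) and 11584 (Psat1) RNA reads per library and by between 103 (Cth) and 20601 (Psat1) footprint reads. Of the fibroblast markers, 8 of 8 were present, led by Vim with 4106 ± 159 RPKM (SD, n = 5) in controls. Of the markers of other cell types, 1 of 4 epithelial, 1 of 3 immune, 1 of 3 endothelial, 1 of 3 muscle and 0 of 3 neural genes were among the genes with values, and the highest of these, Cd14, reached 18.1 RPKM. None of the marker genes was called in RNA between knockdown and control, and Cd14 was called higher in footprints (log2 change 0.38). Denr RNA was 180.5 ± 11 RPKM (SD, n = 5) in controls and 29.2 ± 13 RPKM (SD, n = 6) in knockdown lysates (log2 change -2.75, which is 85.1% lower on that scale), and it was lower with shRNA2 (15.5, 20.8 and 17.4 RPKM) than with shRNA1 (44.0, 43.2 and 34.4 RPKM). One RNA-seq library, Denr shRNA1 replicate 1, stood above the other knockdown lysates for several enzymes. The changes of enzyme RNA between knockdown and control that it moved are given with and without it.

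Atf4 RNA rose after Denr knockdown, whereas the RNA of none of the 10 enzymes passed the test. Atf4 RNA was 1806, 1435 and 1479 RPKM with Denr shRNA1 and 1658, 1516 and 1417 RPKM with Denr shRNA2. It was 1191, 1152 and 1176 RPKM with scramble shRNA and 1243 and 1192 RPKM with Gfp shRNA. All knockdown lysates lay above all controls, as for 2.63% of all genes, and the increase was 29.9% (log2 change 0.38, SE 0.08; limma, adjusted p = 0.0266). Without Denr shRNA1 replicate 1 the log2 change was 0.33, and Atf4 was called without any single lysate. With Denr shRNA1 alone the log2 change was 0.39 and no longer passed (adjusted p = 0.125), and with Denr shRNA2 alone it was 0.36 (adjusted p = 0.0490).

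The RNA of 9 of the 10 enzymes had a log2 change below 0, where 42.9% of all genes did, and their median change was -0.09 against 0.03 for all genes. Past an FDR of 0.1 there were 0 of 10 enzymes by limma, beside 3.55% of all genes. By voom on the recovered reads there was 1, Mthfd1l, in a fit that called 425 of the 10516 genes. An unadjusted p under 0.05 (limma) was seen for 2 of the 10 enzymes and for 1697 of the 10516 genes. Genes called higher made up 2.68% of all genes and genes called lower 0.865%. The upper bound of the 95% interval lay below the change of Atf4 in 9 of the 10 enzymes, Pycr1 being the exception. In 8 it lay below the lower bound of Atf4, 0.21, and the others were Pycr1 and Cth. The share of all genes for which either held was not computed, and the difference between an enzyme and Atf4 was not tested. The upper quartile of the change over all genes was 0.14, also below the change of Atf4. Fewer cells expressing a gene and less RNA per cell cannot be told apart in such bulk libraries.

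**Figure D1:**
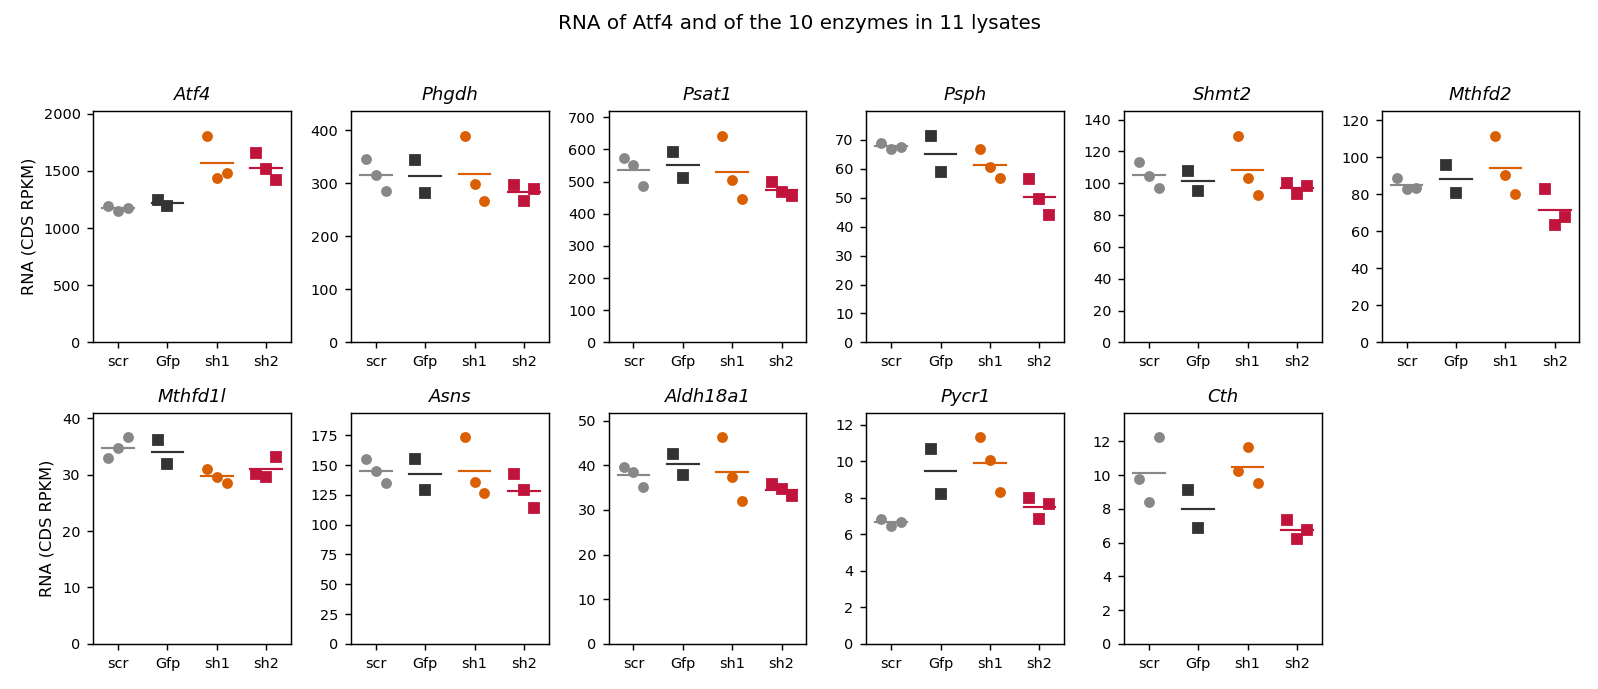
RNA of Atf4 and the 10 enzymes, as CDS RPKM on linear axes from 0, with 1 point per lysate and a line at the mean of each shRNA (scr, scramble shRNA; Gfp, Gfp shRNA; sh1 and sh2, Denr shRNA1 and shRNA2). The 6 knockdown lysates lie above the 5 controls for Atf4 and for none of the enzymes.

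The enzymes of serine synthesis act in sequence. Phgdh (chr3:98313170-98339990, GRCm38, minus strand) encodes phosphoglycerate dehydrogenase, which commits a glycolytic intermediate to serine. Its RNA was 390, 299 and 267 RPKM with Denr shRNA1, 298, 266 and 289 RPKM with Denr shRNA2, 346, 317 and 285 RPKM with scramble shRNA and 345 and 282 RPKM with Gfp shRNA. The groups overlapped, with the highest value in Denr shRNA1 replicate 1, and the log2 change was -0.07 (95% interval -0.29 to 0.15; adjusted p = 0.786). Without that lysate it was -0.15 (adjusted p = 0.326).

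Psat1 (chr19:15904678-15947337, minus strand), the aminotransferase of the next step, was the most abundant of the 10 per length. Its RNA was 502 ± 72.2 RPKM (SD, n = 6; 446 to 642) after knockdown and 543 ± 44.0 RPKM (SD, n = 5; 485 to 592) in controls. The log2 change was -0.12 (95% interval -0.33 to 0.08), and -0.19 without Denr shRNA1 replicate 1 (adjusted p = 0.165). Psph (chr5:129765558-129787449, minus strand) encodes the phosphatase of the last step. Its RNA was 66.8, 60.6 and 56.7 RPKM with Denr shRNA1 and 56.6, 49.7 and 44.1 RPKM with Denr shRNA2. With scramble shRNA it was 69.1, 66.7 and 67.7 RPKM and with Gfp shRNA 71.4 and 59.0 RPKM. Psph had the lowest change of the 10, with 4 knockdown lysates below all controls, but it did not pass the test (log2 change -0.27, SE 0.10; adjusted p = 0.190). It passed with Denr shRNA2 alone (log2 change -0.42, adjusted p = 0.0511) and without Denr shRNA1 replicate 1 (-0.32, adjusted p = 0.0808), in fits that called 474 and 515 genes.

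The mitochondrial folate enzymes pass one-carbon units on from serine. Shmt2 (chr10:127517123-127522444, minus strand) converts serine to glycine, and its RNA was 103 ± 13.8 RPKM in the knockdown lysates (SD, n = 6) against 103 ± 7.48 RPKM for controls (SD, n = 5) (log2 change -0.02, 95% interval -0.21 to 0.18). Without Denr shRNA1 replicate 1 the change was -0.09 (adjusted p = 0.511). Mthfd2 (chr6:83305691-83325908, minus strand) oxidises methylene-tetrahydrofolate. It was at 112, 90.7 and 80.3 RPKM with Denr shRNA1 and at 83.0, 63.2 and 67.9 RPKM with Denr shRNA2, while controls ranged from 80.6 to 96 RPKM. The shRNA2 lysates thus reached lower than any control and 1 shRNA1 lysate higher, and the pooled log2 change was -0.08 (95% interval -0.35 to 0.18). Without that shRNA1 lysate, replicate 1, it was -0.17 (adjusted p = 0.351).

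Mthfd1l (chr10:3973118-4167081, plus strand) releases formate from mitochondria. Its RNA was 31.0, 29.6 and 28.5 RPKM with Denr shRNA1 and 30.1, 29.7 and 33.2 RPKM with Denr shRNA2. It was 33.0, 34.8 and 36.6 RPKM with scramble shRNA and 36.2 and 31.9 RPKM with Gfp shRNA. All but 1 of the knockdown lysates lay below all controls. The log2 change was -0.18 (SE 0.07) with an adjusted p of 0.178 by limma. With voom on the recovered reads it was -0.21 and was called, in a fit that called 425 genes.

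Asns (chr6:7675169-7693254, minus strand) encodes asparagine synthetase, which amidates aspartate and is widely used as a readout of ATF4. Its RNA was 173, 136 and 127 RPKM with Denr shRNA1, 142, 129 and 114 RPKM with Denr shRNA2, 155, 145 and 135 RPKM with scramble shRNA and 155 and 129 RPKM with Gfp shRNA. Apart from Denr shRNA1 replicate 1, no knockdown lysate exceeded the highest control. The log2 change was -0.08 (95% interval -0.29 to 0.13; adjusted p = 0.735), and -0.15 without that lysate (adjusted p = 0.313).

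Of the proline enzymes, Aldh18a1 (chr19:40550257-40588463, minus strand) makes the precursor from glutamate and Pycr1 (chr11:120635712-120643769, minus strand) carries out the last reduction. Aldh18a1 RNA was 36.5 ± 5.12 RPKM in the knockdown lysates (SD, n = 6) against 38.7 ± 2.66 RPKM for controls (SD, n = 5) (log2 change -0.09, 95% interval -0.29 to 0.11), and without Denr shRNA1 replicate 1 the change was -0.16 (adjusted p = 0.231). Pycr1, the only one of the 10 with a change above 0, was at 11.3, 10.1 and 8.3 RPKM with Denr shRNA1 and at 8.0, 6.83 and 7.66 RPKM with Denr shRNA2. With scramble shRNA it was at 6.83, 6.45 and 6.67 RPKM and with Gfp shRNA at 10.7 and 8.22 RPKM. The Gfp shRNA lysates thus lay within the range of the knockdown lysates, and the log2 change of 0.17 had a 95% interval from -0.16 to 0.49. Without Denr shRNA1 replicate 1 it was 0.09 (adjusted p = 0.78).

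Cth (chr3:157894248-157925077, minus strand) encodes cystathionine gamma-lyase, the last enzyme of cysteine synthesis from methionine. Its RNA was 10.2, 11.7 and 9.56 RPKM with Denr shRNA1, 7.31, 6.19 and 6.72 RPKM with Denr shRNA2, 9.74, 8.42 and 12.2 RPKM with scramble shRNA and 9.09 and 6.85 RPKM with Gfp shRNA. The lysates of the 2 Denr shRNAs did not overlap with each other, a separation whose share over all genes was not computed. The controls spanned nearly the whole range, and Cth had 117 to 257 RNA reads per library. The pooled log2 change was -0.12 (95% interval -0.50 to 0.26), and -0.17 without Denr shRNA1 replicate 1 (adjusted p = 0.64).

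The ratio of enzyme RNA to Atf4 RNA within each lysate was on average lower after knockdown, where Atf4 RNA itself was higher. Asns RNA was 8.08% to 9.60% of Atf4 RNA (CDS RPKM + 0.1) in knockdown lysates and 10.9% to 13.0% in controls. Psat1 RNA was 30.0% to 35.5% and 41.3% to 48.3% of it, respectively. For 8 of the 10 enzymes, all but Pycr1 and Cth, every knockdown lysate lay below every control in this ratio. The same held for 35.0% of the 10515 genes other than Atf4, whose own rise enters every ratio.

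The 2 Denr shRNAs were next compared directly, in a model with a mean for each shRNA. The RNA of 9 of the 10 enzymes was lower with shRNA2 than with shRNA1, against 54.4% of all genes, and Mthfd1l had the value above 0. Without Denr shRNA1 replicate 1 the log2 differences of Asns (-0.035), Phgdh (0.0082), Psat1 (-0.0040), Shmt2 (-0.012) and Aldh18a1 (-0.0069) were near 0. Those of Mthfd2 (-0.27) and Pycr1 (-0.28) were still below it. Over all 11 lysates Cth was called (1 of 10, beside 2.06% of all genes). Its log2 difference was -0.63 (SE 0.16; limma, adjusted p = 0.0954), but 8 of the 11 fits that left out 1 lysate lost the call, among them all 6 without a knockdown lysate and those without scramble shRNA replicate 1 or 2 (adjusted p up to 0.359). Mthfd2 (-0.40), Pycr1 (-0.39) and Psph (-0.30) had unadjusted p-values of 0.0134, 0.0163 and 0.0212 in this limma fit and did not pass after adjustment (adjusted p = 0.228, 0.249 and 0.279). Atf4 RNA differed by -0.04 between the shRNAs (95% interval -0.27 to 0.20).

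Between the 2 control shRNAs, none of the 10 enzymes passed the test, beside 0.704% of all genes, and voom called 0 enzymes. An unadjusted p under 0.05 (limma) was seen for 1 enzyme and for 1019 of the 10516 genes. Pycr1 had the greatest difference, 0.49 higher with Gfp shRNA on the log2 scale (SE 0.15; limma, adjusted p = 0.287). The change of Pycr1 between knockdown and control was 0.17, and the difference between these values was not tested.

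Whether the enzymes went with Atf4 among lysates of the same shRNA was tested by the slope of log2 RNA on log2 Atf4 RNA, with a mean for each shRNA. Over all 11 lysates, 7 of the 10 enzymes were called, all with positive slopes, beside 13.5% of all genes with a positive slope and 24.9% in either direction. The slopes were 1.34 for Asns (SE 0.32; limma, adjusted p = 0.0485), 1.29 for Mthfd2, 1.17 for Phgdh, 1.15 for Psat1, 1.06 for Aldh18a1, 0.98 for Shmt2 and 0.93 for Psph. Those of Pycr1 (0.84), Cth (0.20) and Mthfd1l (0.08) were not called.

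These calls depended on the lysates and terms in the fit. Without Denr shRNA1 replicate 1, which had the most Atf4 RNA, 0 of the 10 enzymes and 0 of all genes were called by limma (2 enzymes had an unadjusted p under 0.05), and the slope of Asns was 1.44 (adjusted p = 0.737) and that of Phgdh 0.46 (adjusted p = 0.926). Without Denr shRNA1 replicate 3 no enzyme was called either (6 had an unadjusted p under 0.05), and without replicate 2 of either Denr shRNA 2 were. Within its shRNA group Denr shRNA1 replicate 1 was above the mean for 9 of the 10 enzymes, by 0.31 for Phgdh and 0.27 for Asns on the log2 scale. Replicate 1 of Denr shRNA2 was above its group mean for 9 of 10. That of Gfp shRNA was so for 10 of 10 and that of scramble shRNA for 8 of 10. Replicate 1 was thus high in each of the 4 shRNA groups, and the share of all genes was not computed. Atf4 RNA was also highest in replicate 1 of each group, at 1806 (Denr shRNA1), 1658 (Denr shRNA2), 1243 (Gfp shRNA) and 1191 RPKM (scramble shRNA). The slope on Atf4 and the replicate number therefore cannot be fully told apart. With the replicate number as a block, 0 of the 10 enzymes and 0 of all genes were called by limma (0 enzymes had an unadjusted p under 0.05), and the slope of Asns was 0.66. The plot of enzyme RNA against Atf4 RNA shows Denr shRNA1 replicate 1 at the right.

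**Figure D2:**
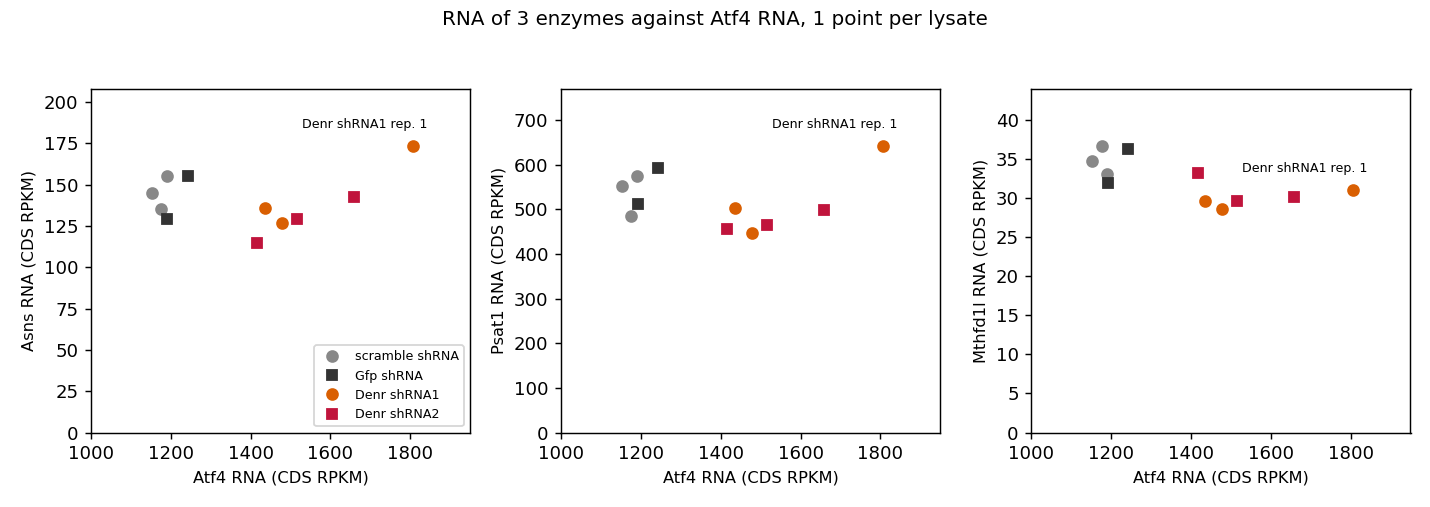
RNA of Asns, Psat1 and Mthfd1l (CDS RPKM, axis from 0) against Atf4 RNA (CDS RPKM, axis not from 0) in the 11 lysates, coloured by shRNA. Knockdown lysates are shifted to the right by their Atf4 RNA without lying higher, except Denr shRNA1 replicate 1, which is highest for Asns and Psat1 at 173 and 642 RPKM.

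Over the 11 lysates, with no group terms, the mean z-score of the 10 enzymes had a Pearson r of -0.0049 with Atf4 RNA. The genes most like the enzymes were Gart, an enzyme of purine synthesis (r = 0.973), Trim28 (0.973), Cfl1 (0.972), Timm50 (0.971) and Tbl3 (0.965). These values describe 11 lysates that share 4 shRNAs and their library composition, and 2.60% of the 10345 genes compared exceeded 0.9 in size.

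Footprints on the CDS report how much of each enzyme was being translated. Mthfd1l and Psat1 fell, 2 of 10 enzymes beside 4.55% of all genes called lower, and none rose, beside 5.47% called higher and 10.0% called in either direction. A change below 0 was seen in 8 of the 10, against 48.1% of all genes. Mthfd1l footprints were 26.1, 24.4 and 24.2 RPKM with Denr shRNA1 and 28.7, 24.4 and 30.4 RPKM with Denr shRNA2, against 30.6, 35 and 40.7 RPKM with scramble shRNA and 32 and 30.6 RPKM with Gfp shRNA. All knockdown lysates lay below all controls, as for 1.97% of all genes, and the decrease was 21.7% (log2 change -0.35, SE 0.09; limma, adjusted p = 0.0383). It remained called without any single lysate but not with Denr shRNA2 alone (log2 change -0.27, adjusted p = 0.18).

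Psat1 footprints were 761, 712 and 695 RPKM with Denr shRNA1 and 764, 718 and 703 RPKM with Denr shRNA2. They were 851, 805 and 875 RPKM with scramble shRNA and 794 and 753 RPKM with Gfp shRNA. The groups overlapped slightly, at Gfp shRNA replicate 2, and the log2 change was -0.17 (SE 0.06) with an adjusted p of 0.0995 by limma, just inside the threshold. The call was lost in 10 of the 11 fits that left out 1 lysate, all except the one without Gfp shRNA replicate 2, with adjusted p-values up to 0.211.

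The other enzymes of serine synthesis were close to the threshold in the same direction. Phgdh footprints were 379 ± 15.3 RPKM in the knockdown lysates (SD, n = 6) against 420 ± 19.7 RPKM for controls (SD, n = 5) (log2 change -0.15, adjusted p = 0.107 by limma). Psph footprints were 90.7 ± 3.98 and 102 ± 7.23 RPKM (log2 change -0.16, adjusted p = 0.112). Both were called without Gfp shRNA replicate 1 (adjusted p = 0.0962 and 0.0731) and without Gfp shRNA replicate 2 (0.0708 and 0.0701). Aldh18a1 had a log2 change of -0.17 (adjusted p = 0.128).

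For the remaining enzymes the footprint changes were -0.16 for Mthfd2, -0.13 for Cth, -0.06 for Asns, 0.00 for Shmt2 and 0.11 for Pycr1 on the log2 scale, with adjusted p-values between 0.338 and 0.981 (limma). Mthfd2 footprints were 73.0, 57.7 and 66.1 RPKM with Denr shRNA2, below all controls (78.2 to 90.1 RPKM), a separation whose share over all genes was not computed. They were called with that shRNA alone (log2 change -0.35, adjusted p = 0.0491 by limma), in a fit that called 774 of the 10516 genes. With Denr shRNA1 they were 87.8, 83.7 and 84.2 RPKM, within the controls. The median footprint change of the 10 enzymes was -0.16, against 0.01 for all genes. Atf4 footprints were 195 to 238 RPKM after knockdown and 135 to 235 RPKM in controls, and their log2 change of 0.24 did not pass (adjusted p = 0.215 by limma). Without Gfp shRNA replicate 2 it was 0.33 (adjusted p = 0.0594).

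**Figure D3:**
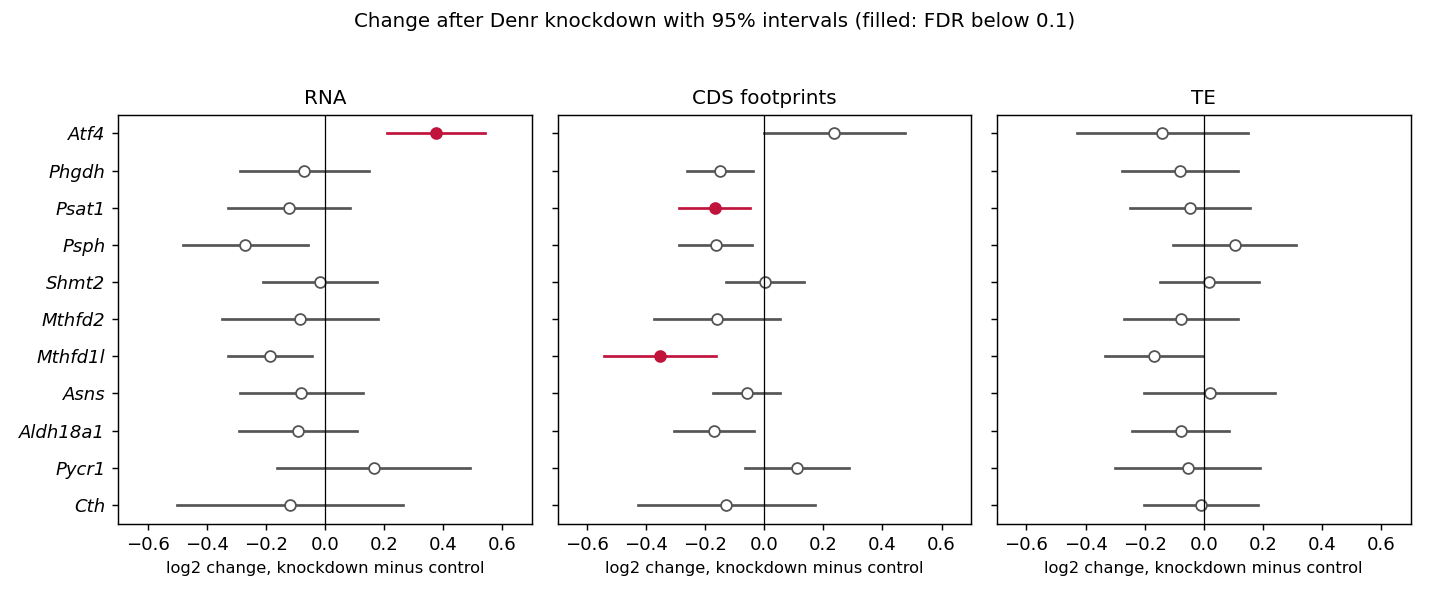
Log2 change between knockdown and control lysates with its 95% interval from limma, for RNA, CDS footprints and translation efficiency (TE). Filled red points pass an FDR of 0.1, which holds for Atf4 in RNA (0.38) and for Psat1 (-0.17) and Mthfd1l (-0.35) in footprints.

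The translation efficiency (TE), footprints relative to RNA on the CDS, differed widely among the enzymes in control cells. Shmt2 and Pycr1 had log2 TEs of 1.18 ± 0.07 and 1.17 ± 0.21 (SD, n = 5), above those of 95.2% and 95.1% of all genes. Psph (0.61 ± 0.13) and Psat1 (0.59 ± 0.16) followed and did not differ beyond their spread, then came Cth (0.49 ± 0.14), Phgdh (0.42 ± 0.13), Aldh18a1 (0.31 ± 0.07) and Asns (0.23 ± 0.12). Mthfd1l (-0.04 ± 0.13) and Mthfd2 (-0.05 ± 0.14) were the lowest. Atf4 was at -2.69 ± 0.28, at the 1.5th percentile of all genes.

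In RNA per length, the order in control cells was Psat1 (543 RPKM), Phgdh (315), Asns (144), Shmt2 (103), Mthfd2 (86.4), Psph (66.8), Aldh18a1 (38.7), Mthfd1l (34.5), Cth (9.27) and Pycr1 (7.77). Among neighbours in this order, Shmt2 and Mthfd2, Aldh18a1 and Mthfd1l, and Cth and Pycr1 overlapped in their control ranges.

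After knockdown, none of the 10 enzymes passed the test for TE, beside 0.475% of all genes called lower and 0.0% called higher. An unadjusted p under 0.05 (limma) was seen for 700 of the 10516 genes and for 1 enzyme. That enzyme was Mthfd1l, with a log2 change of -0.17 (95% interval -0.33 to -0.00; limma, adjusted p = 0.742). Its log2 TE was -0.25, -0.28 and -0.24 with Denr shRNA1, -0.06, -0.28 and -0.13 with Denr shRNA2, -0.11, 0.01 and 0.15 with scramble shRNA, and -0.18 and -0.06 with Gfp shRNA. The other changes ran from -0.08 (Phgdh) to 0.10 (Psph), and that of Atf4 was -0.14 (95% interval -0.43 to 0.15).

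Footprints on the 5′ UTR relative to the CDS of the same mRNA had a change above 0 in 93.5% of the 5175 genes with enough 5′ UTR reads, and 18.1% were called higher. The 939 calls in either direction became 38 without Denr shRNA2 replicate 2 and 96 without Gfp shRNA replicate 1, 5 and 9 with Denr shRNA1 or shRNA2 alone, and 4 when 5′ UTR footprints were set over 5′ UTR RNA. Asns, Phgdh, Psat1, Psph, Shmt2 and Aldh18a1 had enough reads. Of these 6 all had changes above 0 and 1, Psph, was called. Their median change was 0.48 against 0.33 for all covered genes.

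Psph has the longest 5′ UTR of the 10 in GENCODE (822 nt) and the most upstream AUG starts with an in-frame stop codon (4). Its log2 ratio of 5′ UTR to CDS footprints was -2.86, -2.72 and -2.47 with Denr shRNA1 and -2.91, -2.79 and -2.56 with Denr shRNA2. It was -3.50, -3.11 and -3.05 with scramble shRNA and -3.42 and -3.05 with Gfp shRNA. All knockdown lysates lay above all controls, as for 4.83% of the covered genes. The ratio rose by 42.4% (log2 change 0.51, SE 0.17; limma, adjusted p = 0.0799), on 102 to 231 reads on the 5′ UTR per library. The call was lost without any 1 of Denr shRNA1 replicates 2 and 3, Denr shRNA2 replicate 2, Gfp shRNA replicate 1 or scramble shRNA replicate 1 (adjusted p = 0.132 to 0.159). It was also lost with Denr shRNA1 or shRNA2 alone (0.196 and 0.365), against only the scramble lysates (0.123), with a filter on a 5′ UTR RPKM of at least 1 (0.13) and with 5′ UTR footprints over 5′ UTR RNA (0.173).

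Phgdh (log2 change 0.59, limma adjusted p = 0.116), Shmt2 (0.55, 0.129) and Aldh18a1 (0.44, 0.126) had 95% intervals above 0 without passing the FDR, and each passed when Denr shRNA2 replicate 1 was left out. None of these genes has an upstream AUG start on the transcript searched. Psat1 (0.33, 95% interval -0.24 to 0.90) has 1 that overlaps the CDS, and Asns (0.25, 95% interval -0.15 to 0.66) has 1. Pycr1 has 3, but its 5′ UTR held only 13 to 46 reads per library, and those of Mthfd1l (15 to 29 reads), Mthfd2 (1 to 11) and Cth (0 to 1) were likewise too thinly covered. In all, 4 of the 10 enzymes had such a start, against 49.8% of the 10205 genes with a 5′ UTR.

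**Figure D4:**
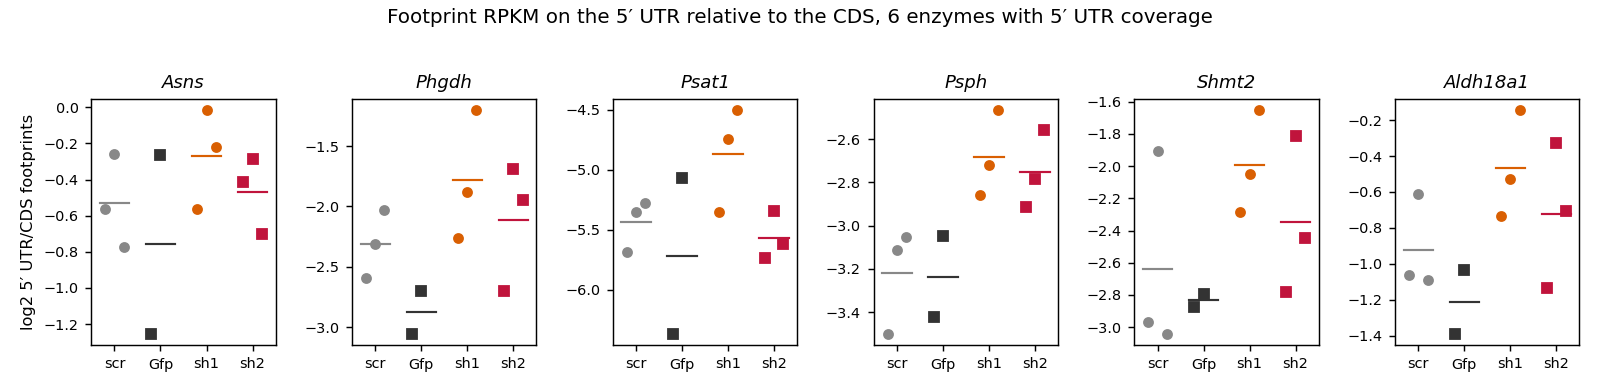
Log2 ratio of 5′ UTR to CDS footprint RPKM for the 6 enzymes with enough 5′ UTR reads, with 1 point per lysate and a line at the mean of each shRNA (scr, scramble; sh1 and sh2, Denr shRNAs). Only for Psph do the knockdown lysates (-2.91 to -2.47) and controls (-3.50 to -3.05) not overlap, as for 4.83% of the 5175 covered genes.

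Other genes of the serine, folate, proline, glutamate and methionine pathways gave few calls in RNA. Of 28 with values (of 34 listed), 0 were called higher and 1 lower in RNA, beside 2.68% and 0.865% of all genes, with a median log2 change of -0.06. The one was Mat2a, which makes S-adenosylmethionine, at 115 ± 6.29 RPKM in the knockdown lysates (SD, n = 6) against 136 ± 7.05 RPKM for controls (SD, n = 5) (log2 change -0.24, SE 0.06; limma, adjusted p = 0.0749). It was called in only 3 of the 11 fits that left out 1 lysate, and not with Denr shRNA1 alone (-0.20). In footprints 6 of the 28 were called lower and 0 higher, beside 4.55% and 5.47% of all genes.

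Other ATF4 targets included genes that rose with Atf4. This list, like those of the pathway genes, transporters and synthetases, was written with earlier results of these data known. Its counts are therefore a description and no test of ATF4 targets as a set. Of 17 with values (of 20 listed), 4 were called higher in RNA and 0 lower, beside 2.68% and 0.865% of all genes, and the median log2 change was 0.11. In footprints 3 of the 17 were called higher and 0 lower, beside 5.47% and 4.55% of all genes. Trib3, a pseudokinase induced by stress, was at 26 ± 4.14 RPKM in the knockdown lysates (SD, n = 6) against 17 ± 2.88 RPKM for controls (SD, n = 5) (log2 change 0.61, SE 0.13; limma, adjusted p = 0.0279). Nupr1, a small stress-induced chromatin protein, rose from 82.0 ± 7.98 to 118 ± 6.83 RPKM (log2 change 0.53, adjusted p = 0.00454). Both were called without any single lysate, but Trib3 was not called with Denr shRNA2 alone (0.47).

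Ddit3, which encodes the transcription factor CHOP, rose by 0.52 on the log2 scale (SE 0.14; limma, adjusted p = 0.0854), though it was called in only 5 of the 11 fits that left out 1 lysate, and neither with Denr shRNA2 alone (0.29) nor with libraries centred on their median (0.50). The fourth was Atf5, another uORF-controlled transcription factor, named here after its values were seen. Its RNA rose by 0.35 (adjusted p = 0.0322) while its TE fell by 0.56 (adjusted p = 0.0234), the 1 call in TE among the 17.

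Amino acid transporters and aminoacyl-tRNA synthetases, which also include targets of ATF4, gave 1 call in RNA. Of 7 transporters with values (of 9 listed), 1 was called higher and 0 lower in RNA, beside 2.68% and 0.865% of all genes, and the median log2 change was -0.08. In footprints the counts were also 1 and 0. Slc6a9, a glycine transporter, rose from 18.5 ± 2.40 RPKM (SD, n = 5) to 24.9 ± 3.10 RPKM (SD, n = 6), a log2 change of 0.43 (SE 0.10; limma, adjusted p = 0.0589), and was called in 5 of the 11 fits that left out 1 lysate but not with Denr shRNA1 alone (0.38). Of the 20 synthetases, 17 had a change below 0 in RNA, against 42.9% of all genes, and none was called in either direction, with a median of -0.09. In footprints, 5 of the 20 were called lower and 0 higher, beside 4.55% and 5.47% of all genes. These were Vars (-0.39), Aars (-0.28), Cars (-0.27), Eprs (-0.24) and Lars (-0.18 on the log2 scale), named after their values were seen.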

How the data were processed

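RPF-seq and RNA-seq libraries of 11 lysates were compared. The authors deposited RPKM of the CDS and 5′ UTR of 10516 genes per library. Per the paper's methods, reads were trimmed, size-selected, aligned to rRNA, tRNA and cDNA and then to the genome, counted per region of expressed isoforms, with low-count and mitochondrial genes removed, and normalised by the upper quartile with edgeR for each assay separately. The submitters' processing notes name GRCm38.p2, Bowtie2 2.2.1, TopHat2 2.0.11 and Cufflinks 2.2.1.

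Whole reads were recovered from the RPKM steps (tolerance 0.01; 231352 of 231352 CDS and 228800 of 228800 finite 5′ UTR values whole). They gave the depth and the filter of at least 20 5′ UTR reads in at least 9 RPF-seq libraries.

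Values were log2(RPKM + 0.1); a fold change on this scale understates that of low genes. limma (3.58.1, R 4.3.3; lmFit, eBayes with trend) was fitted over all genes, knockdown against control, with Benjamini-Hochberg adjustment over all genes and an FDR of 0.1. TE was log2 RPF minus log2 RNA per lysate. Adjusted p-values in the text are from limma. Alternatives were other pseudocounts, a filter on low values, centring, no trend, the replicate block, each shRNA alone, scramble shRNA alone, voom on recovered reads with TMM factors, another model for TE, another 5′ UTR filter and denominator, 2 group terms for the slope, and leaving out each lysate.

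Named were all members, Atf4, Denr, the 3 greatest rises and falls in RNA past the FDR in each list, and the 5 genes with the highest r with the members' mean z-score. The ratio to Atf4 RNA was added after the data had been seen. Members and lists were chosen with earlier results of these data known. Of the gene IDs, 10505 matched a symbol. Positions and uORFs are from GENCODE vM21 (GRCm38; the transcript with the longest CDS, each upstream AUG with an in-frame stop and at least 9 nt), promoters from RefSeq (GRCm38.p6). The GENCODE 5′ UTR lengths can differ from those behind the RPKM, as for Psat1 (136 against 457 nt) and Psph (822 against 934 nt).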

Additional observations from a re-analysis of the deposited data

Results flagged for a closer look

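Values of RNA, CDS footprints and TE of the 10 enzymes and Atf4 were screened for a single lysate far from the rest of its group, over 66 groups, of which chance flags about 1 in 20. There were 7 such values. Denr shRNA1 replicate 1 was highest among knockdown lysates in RNA of Phgdh (gap over range 0.696), Shmt2 (0.67) and Psat1 (0.663), and lowest in TE of Phgdh (0.704) and Psat1 (0.639). Its footprints of these genes were not flagged. Among controls, Gfp shRNA replicate 1 was lowest in TE of Mthfd2 (0.775), and scramble shRNA replicate 3, the RNA-seq library with the fewest reads, was highest in TE of Aldh18a1 (0.782).

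Cth RNA differed between the Denr shRNAs, by -0.63 on the log2 scale for shRNA2 against shRNA1 (limma, adjusted p = 0.0954).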

How the results depend on the processing

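Of the single-gene values under alternatives other than leaving out a lysate, 606 kept their direction and side of the threshold, 19 passed only under the alternative, 27 no longer passed and 25 turned. The causes were not tested. With pseudocounts of 0.01 and 1 and with a mean CDS RPKM of at least 1, no count of genes or enzymes moved by more than 1.5 times.

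The labels do not say what a replicate number stands for, and the rule for treating the numbers as pairs, a correlation over 0.1 in every pair, was not met. Deviations of same-numbered lysates of different shRNAs correlated by -0.08 to 0.77 in RNA (mean 0.33, 10 of 15 pairs over 0.1), -0.00 to 0.32 in footprints (mean 0.18, 13 of 15) and -0.13 to 0.73 in TE (mean 0.23, 10 of 15), and 7, 9 and 9 of 11 lysates, respectively, correlated best with their own number. The data thus hint at a shared component that the labels do not name. With the replicate block, limma called 1003 genes in RNA, 1940 in footprints, 2418 in relative 5′ UTR translation, 965 between the Denr shRNAs and 157 between the control shRNAs. Of the enzymes it then called 5 in footprints, 4 in relative 5′ UTR translation, 4 between the Denr shRNAs and, of the slopes on Atf4, 0 (0 of all genes; all 7 calls were lost). Under this block the log2 value turned for Shmt2 RNA (0.0021), Asns TE (-0.015), Psat1 (-0.033) and Mthfd2 (-0.0028) between the control shRNAs, and the slope of Cth (-0.37).

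With Denr shRNA1 alone, 159 genes were called in RNA, 817 in footprints, 1 in TE and 5 in relative 5′ UTR translation. Of the enzymes, 1 was called in footprints (Mthfd1l) and 0 in relative 5′ UTR translation. The RNA changes of Asns (0.0050), Phgdh (0.0035), Shmt2 (0.058), Mthfd2 (0.11) and Cth (0.20), the footprint changes of Mthfd2 (0.031) and Cth (0.091) and the TE changes of Asns (-0.084), Psph (-0.0044) and Shmt2 (-0.026) turned. With Denr shRNA2 alone, 474 genes were called in RNA, 774 in footprints and 9 in relative 5′ UTR translation. Of the enzymes, 1 was called in RNA (Psph), 1 in footprints (Mthfd2) and 0 in relative 5′ UTR translation. Pycr1 RNA (-0.027), Shmt2 footprints (-0.024), the TE of Psat1 (0.034), Pycr1 (0.059) and Cth (0.084) and the 5′ UTR ratio of Psat1 (-0.018) turned.

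With scramble shRNA alone as control, 940 genes were called in RNA, 2651 in footprints, 10 in TE and 514 in relative 5′ UTR translation, with 4 enzymes in footprints and 0 in relative 5′ UTR translation, while Shmt2 footprints (-0.024) and Cth TE (0.052) turned. voom called 425 genes and 1 enzyme in RNA, 1178 genes and 4 enzymes in footprints, and 381 genes between the Denr shRNAs. It turned Shmt2 footprints (-0.0026). Centred libraries and eBayes without trend each called 1 enzyme in footprints (Mthfd1l), in fits that called 1027 and 860 genes. Centring turned Cth TE (0.0093), and without trend 4 slopes were called. Filtering on a 5′ UTR RPKM of 1 or more gave 131 genes and 0 enzymes, and 5′ UTR footprints over 5′ UTR RNA 4 genes and 0 enzymes.

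Leaving out each lysate gave 139 to 734 genes and 0 to 1 enzymes in RNA, 484 to 1946 and 1 to 4 in footprints, 14 to 72 genes in TE, 38 to 1773 genes and 0 to 4 enzymes in relative 5′ UTR translation, 61 to 267 and 0 to 1 between the Denr shRNAs, 1 to 212 genes between the control shRNAs, and 0 to 3967 genes and 0 to 7 enzymes for the slope. Values that turned ranged from -0.085 to 0.017 for Shmt2 RNA, -0.024 to 0.039 for its footprints and -0.0051 to 0.071 for its TE, from -0.038 to 0.090 for Asns, -0.087 to 0.019 for Psat1 and -0.067 to 0.019 for Cth TE, and from -0.26 to 0.0082 for Phgdh between the Denr shRNAs. Between the control shRNAs they ranged from -0.16 to 0.099 (Asns), -0.16 to 0.13 (Phgdh), -0.065 to 0.14 (Psat1), -0.20 to 0.073 (Psph), -0.14 to 0.036 (Shmt2), -0.078 to 0.17 (Mthfd2) and -0.12 to 0.059 (Mthfd1l), and for slopes from -0.40 to 0.31 (Mthfd1l) and -0.034 to 0.95 (Cth).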
